A study of Rattus norvegicus with 18 samples.

Results

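The genes described are those of mitochondrial respiratory complexes II to V that the array names singly. They are the genes whose only array symbol is Sdha, Sdhb, Sdhc, Sdhd, Cyc1 or Cycs, or starts with Uqcr, Atp5, Cox4, Cox5, Cox6, Cox7 or Cox8. The choice used names and no measured value, and it gave 45 of the 14217 genes with a probe set of their own: 4 of complex II, 8 of complex III, 17 of complex IV and 16 of complex V. Each gene was read through 1 probe set, the one with the highest mean over the 18 arrays. A further 7 probe sets list a matching symbol together with other genes, so Cycs (cytochrome c), Cox7a2, Uqcrb, Atp5mc1 and Atp5mc2 were not measured singly and are not members. Cox6c-ps1, which the choice also takes in, is a transcribed pseudogene.

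The measurements were made on soleus muscle of 9 male rats, of which 4 were sham operated (rats 11, 13, 15 and 17) and 5 had chronic kidney disease from 5/6 nephrectomy (SNX; rats 12, 18, 20, 37 and 49). All 9 rats then had the femoral artery of the right limb ligated and cut out 8 weeks after the kidney operation, and muscle of both limbs was taken 24 hours later. The left limb of the same rat, which was not ligated, is therefore the control for the ligation, and each of the 4 groups (sham left, sham right, SNX left, SNX right) holds 1 array per rat. The labels give no strain or age. One label field names every sham array nonischemic and every SNX array ischemic in both limbs, against the study's own design text, so groups are named here by operation and side.

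Complex II (succinate dehydrogenase) feeds electrons from the tricarboxylic acid cycle to ubiquinone, complex III passes them to cytochrome c, complex IV (cytochrome c oxidase) hands them to oxygen, and complex V (ATP synthase) uses the proton gradient so built to make ATP. Most subunits are nuclear genes and are thought to be transcribed together under the factors NRF1, GABP and the oestrogen-related receptors, while a few subunits of complex IV exist as a muscle isoform and an isoform of most other tissues. Ischemia removes the oxygen that complex IV consumes. The comparisons ask whether these transcripts differed between the ligated and the other limb after 1 day, whether they differed between SNX and sham rats, and whether the limb difference depended on the kidney operation.

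All values are log2 array signals normalized by the authors, so a difference of 1 is a doubling. Of the 45 genes, 36 had a mean above 12 and 33 a mean above 13, on a table that ends at 15.9. How far the upper end of the scale compresses differences was not tested. Cox4i2, Cox6b2 and Cox7b2, isoforms known from lung, testis and other tissues, had means of 2.08, 1.99 and 2.44, below the lowest array median of 3.23. They gave only background here, so 42 genes carry the descriptions by rat and by array. Within those 42 genes, 26 spanned less than 0.5 log2 units over all 18 arrays, 12 spanned 0.5 to 1, and 4 spanned more: Cox7a1 (2.19), Cox5a (1.80), Cox6a1 (1.38) and Atp5if1 (1.04).

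Of the whole data set, 2 arrays stood apart, the right arrays of sham rat 17 and SNX rat 49, whose mean correlation with the others was 0.978 and 0.98 (0.987 or above on the remaining arrays). The mean of 13 macrophage genes was 8.357 and 7.684 on these arrays and 6.823 or below elsewhere. The mean of 9 slow fibre genes ran from 10.4 (SNX right, rat 20) and 11.32 (sham left, rat 17) to 14.47 (SNX left, rat 12). Myh7, the slow myosin, measured 12.66 to 15.73, but Myh4, the fast IIb myosin that is usually scarce in soleus, measured 14.7 to 15.66 and Actn3 14.64 to 15.35 on every array. The mean of the 10 measured fast fibre genes ran from 14.42 to 14.91. Slow fibre genes were thus measured on every array, at levels that varied widely. The markers together did not bear out the labelled muscle. Bulk RNA cannot tell fewer fibres or cells of a type from less RNA per cell, and this holds for every value below.

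Promoter sequence was at hand for 38 of the 45 genes (RefSeq, rat assembly GRCr8), and the 250 bases before the annotated start were searched on both strands for the letters of known mitochondrial and muscle motifs. The GABP letters CCGGAAG stood in 12 of the 38 (31.6%) against 7.74% of all 27457 promoters. Those of NRF1 (CGCATGCG) stood in 5 (13.2%) against 1.63%, and those of the oestrogen-related receptors (AAGGTCA) in 5 (13.2%) against 3.77%. The muscle E-box letters CANNTG stood in 24 (63.2%) against 65.2%, so they did not set these genes apart from other promoters. No 2 different motifs overlapped in these promoters. A match of letters is a description and not a binding site.

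The promoters of 3 genes are shown because they belong to the paired isoforms of complex IV described below, the muscle isoforms Cox6a2 and Cox8b and the general isoform Cox8a. Capitals mark E-box letters in Cox6a2 and Cox8b, and in Cox8a mark the E-box letters CATCTG and both copies of the GABP letters on the opposite strand, CTTCCGG. All 3 lie on the minus strand, at chr1:192219717-192219966 (Cox6a2), chr1:213833624-213833873 (Cox8a) and chr1:205408274-205408523 (Cox8b), and are written 5′ to 3′ up to the base before the start.
Cox6a2: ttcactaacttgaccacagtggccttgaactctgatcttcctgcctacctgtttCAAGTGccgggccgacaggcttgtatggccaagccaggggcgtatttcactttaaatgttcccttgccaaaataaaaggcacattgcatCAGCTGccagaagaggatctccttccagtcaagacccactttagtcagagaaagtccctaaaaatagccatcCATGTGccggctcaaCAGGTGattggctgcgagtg
Cox8b: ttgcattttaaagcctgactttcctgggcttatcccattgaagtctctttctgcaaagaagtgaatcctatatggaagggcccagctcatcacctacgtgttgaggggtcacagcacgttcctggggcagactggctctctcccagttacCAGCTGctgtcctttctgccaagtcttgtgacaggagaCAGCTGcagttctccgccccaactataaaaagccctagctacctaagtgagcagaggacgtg
Cox8a: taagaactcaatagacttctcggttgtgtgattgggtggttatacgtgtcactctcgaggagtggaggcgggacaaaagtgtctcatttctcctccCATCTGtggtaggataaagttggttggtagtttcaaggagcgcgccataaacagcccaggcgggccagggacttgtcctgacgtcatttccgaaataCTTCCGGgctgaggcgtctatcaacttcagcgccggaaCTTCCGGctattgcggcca
These windows held 4 E-box matches in Cox6a2, 2 in Cox8b and 1 in Cox8a. GABP letters were found in Cox8a (2 copies) and not in the windows of Cox6a2 and Cox8b. Whether the letters bear on the values below was not tested.

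One gene stood out between the ligated and the other limb, Cox6a1, the isoform of complex IV subunit 6A found in most tissues other than heart and skeletal muscle. In sham rats 11, 13, 15 and 17 its left soleus measured 10.19, 10.90, 10.69 and 10.34 and its right soleus 11.43, 11.37, 11.11 and 11.37. All 4 right values lay above all 4 left values. In SNX rats 12, 18, 20, 37 and 49 the left values were 10.48, 10.15, 10.89, 10.50 and 10.20 and the right values 10.85, 10.82, 10.81, 11.18 and 11.53. Here the groups overlapped through rat 20, whose left limb was as high as the lower right limbs. The right limb was higher in 8 of the 9 rats.

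The right minus left difference of Cox6a1 was 0.79 ± 0.19 (SE; 1.73-fold, 95% interval 0.379 to 1.21) in sham rats and 0.60 ± 0.17 (1.51-fold, 0.227 to 0.966) in SNX rats. Its unadjusted p-values were 0.000968 and 0.00365. After Benjamini-Hochberg adjustment over 31042 probe sets limma gave 0.112 in sham and 0.366 in SNX rats, and with the rat as a random block 0.0391 and 0.14. On all 18 arrays Cox6a1 therefore rose past the threshold of 0.05 in sham rats with the rat as a random block, and not without a block. Pairing by a fixed term for each rat did not pass (adjusted p-values 0.165 and 0.328). The SNX less sham difference of these changes was -0.196 ± 0.26 (interval -0.75 to 0.358, adjusted p = 1), so the responses were not told apart. Leaving out 1 rat at a time moved it between -0.379 and -0.0284.

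That call lay near the threshold. Leaving out 1 rat at a time in the paired fit kept Cox6a1 below the threshold in 2 of 9 fits (without SNX rat 20, adjusted p = 0.034, and without SNX rat 49, 0.0132). It was lost in the other 7. Dropping sham rats 11, 13, 15 and 17 in turn gave 0.222, 0.0771, 0.0593 and 0.194, and dropping SNX rats 12, 18 and 37 gave 0.0678, 0.0686 and 0.0686. The sham difference itself stayed between 0.642 and 0.916. With an SNX rat left out it stayed at 0.792, since SNX rats enter only the shared spread and the adjustment. Without SNX rat 49 the unpaired fit also passed, at 0.0494.

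Macrophage marker values stand beside those of Cox6a1. The mean of the 13 measured of 14 listed macrophage genes was 5.597 to 6.369 in sham left, 6.034 to 8.357 in sham right, 4.949 to 5.576 in SNX left and 5.334 to 7.684 in SNX right muscle. It was higher in the right limb of 8 of 9 rats, and the exception was the same rat 20 (right minus left -0.242). The right group mean was above the left for 12 of the 13 genes in sham and 13 of 13 in SNX rats, and none of these differences passed the threshold in either fit. Itgam and Fcgr3a stayed below the lowest array median in all 4 group means. The mean of the fibroblast genes was higher in the right limb of 9 rats and that of the endothelial genes in 6. In the fit with the random block 2 of the 7 endothelial genes passed the threshold in sham rats (1.80% of all probe sets). In SNX rats 1 did (0.319%), and all these calls were higher on the right. The endothelial list was split, since Tek was lower on the right (9.108 to 8.486 in sham, 8.952 to 8.413 in SNX rats). The part of these cell types in the Cox6a1 difference was not tested. With the 2 arrays of highest macrophage signal left out, Cox6a1 measured 0.752 ± 0.171 in sham rats in the paired fit (adjusted p = 0.0325) and 0.452 ± 0.149 in SNX rats (0.283). Without the 2 arrays lowest in slow fibre genes the sham value was 0.722 (0.105).

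**Figure D1:**
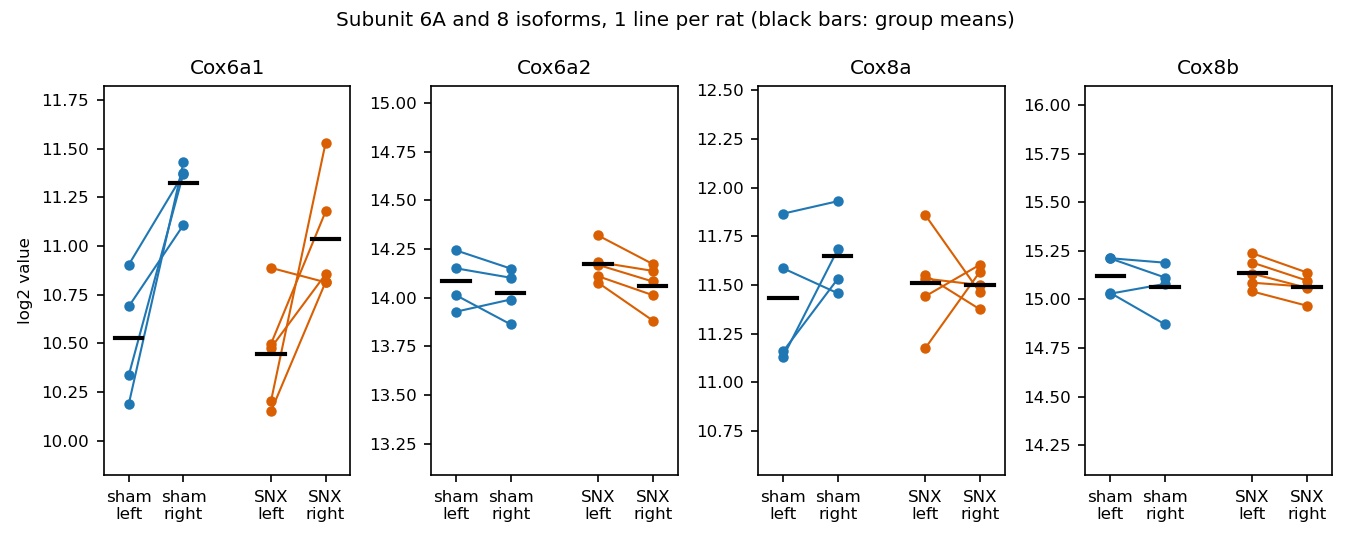
Log2 signals of paired complex IV isoforms by rat, with a line from the left to the right (ligated) soleus of each rat. Cox6a1 lies higher on the right in 8 of 9 rats, with group means of 10.53 and 11.32 in sham and 10.44 and 11.04 in SNX rats, while the lines of Cox6a2 and Cox8b lie near level.

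The muscle isoform of the same subunit did not share this difference of signal. Cox6a2 measured 13.93, 14.24, 14.15 and 14.01 in left and 13.99, 14.15, 14.10 and 13.86 in right muscle of sham rats. In SNX rats it measured 14.18, 14.11, 14.32, 14.17 and 14.08 on the left and 14.14, 14.01, 14.17, 14.08 and 13.88 on the right. Left and right ranges overlapped in both kinds of rat, and the right value was the lower one in 8 of 9 rats. The differences were -0.0573 (interval -0.231 to 0.117) and -0.114 (-0.27 to 0.0418), so the sham and SNX intervals lie below the whole of the Cox6a1 intervals. These are intervals of array signal. Cox6a2 lies higher on the scale than Cox6a1, and compression of differences there was not tested.

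For subunit 8 the isoforms were less far apart. Cox8a, the general isoform, differed by 0.215 in sham (interval -0.13 to 0.56) and -0.0102 in SNX rats (-0.319 to 0.298), with values from 11.13 to 11.93. Cox8b, the muscle isoform, whose values ran from 14.87 to 15.24, differed by -0.0581 (-0.199 to 0.0832) and -0.0719 (-0.198 to 0.0545). None passed the threshold in either fit.

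Cox7a1, the heart and muscle isoform of subunit 7A, varied most. Its single probe set had a mean of 8.559 over all arrays, where the muscle isoforms Cox6a2 and Cox8b had 14.09 and 15.1. How well it measures Cox7a1 was not tested. Sham rats measured 8.63, 8.30, 9.32 and 7.50 on the left and 9.59, 8.26, 9.36 and 8.28 on the right, and SNX rats 7.40, 8.14, 9.53, 9.20 and 8.76 on the left and 8.66, 8.20, 7.53, 9.08 and 8.33 on the right. No group stood apart. The differences were 0.439 ± 0.497 in sham and -0.247 ± 0.445 in SNX rats, and their contrast -0.686 ± 0.667 (interval -2.11 to 0.735). Rat 20 alone went from 9.53 to 7.53, and without it the SNX difference was 0.192. Of the slow fibre genes, 9 of 9 had a higher right than left group mean in sham rats (median 0.419) and 9 of 9 a lower one in SNX rats (median -0.327), and none passed the threshold. Rat by rat this did not hold throughout. The slow fibre mean was lower on the right in SNX rats 20 (-2.12) and 12 (-1.03) and higher in rats 18, 37 and 49 (0.86, 0.1 and 0.55). In rat 12 Cox7a1 differed by 1.26 the other way. Cox7a1 and the slow fibre mean also had opposite signs in rats 15, 37 and 49 (Cox7a1 0.041, -0.12 and -0.431). Their signs matched in rats 11 (Cox7a1 0.969, slow fibre mean 1.52), 13 (-0.0344 and -0.13) and 17 (0.782 and 1.31). The signs also matched in rats 18 (0.0588 and 0.86) and 20 (-2 and -2.12). The part of fibre type in the Cox7a1 values was not tested.

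The other respiratory genes gave no call between the limbs. Of all 31042 probe sets, 0.148% passed the threshold for right against left in sham rats (1.80% with the rat as a block) and 0.0451% in SNX rats (0.319% with the block). Without the block 0 of the 45 genes passed in either kind of rat, and with it Cox6a1 was the 1 that did, in sham rats. At an unadjusted p under 0.05 there were 3 of 45 in sham rats (12.3% of all probe sets), with Cox6a1 higher and Uqcr10 and Uqcr11 lower, and 2 of 45 in SNX rats (7.92%), with Cox6a1 higher and Cox6c lower. With the rat as a random block there were 4 of 45 in sham rats (19.5% of all probe sets), those 3 and Atp5mf, lower. In SNX rats there were then 8 of 45 (12.5%), with Cox6a1 higher and Sdhc, Cox6c, Cox7b, Cox7c, Atp5f1b, Atp5f1e and Atp5mpl lower, at adjusted p-values of 0.251 to 0.389 for those 7. The left and right groups did not overlap for 1 gene in sham rats, Cox6a1 (8.64% of all probe sets in either direction), and for 0 in SNX rats (1.95%).

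**Figure D2:**
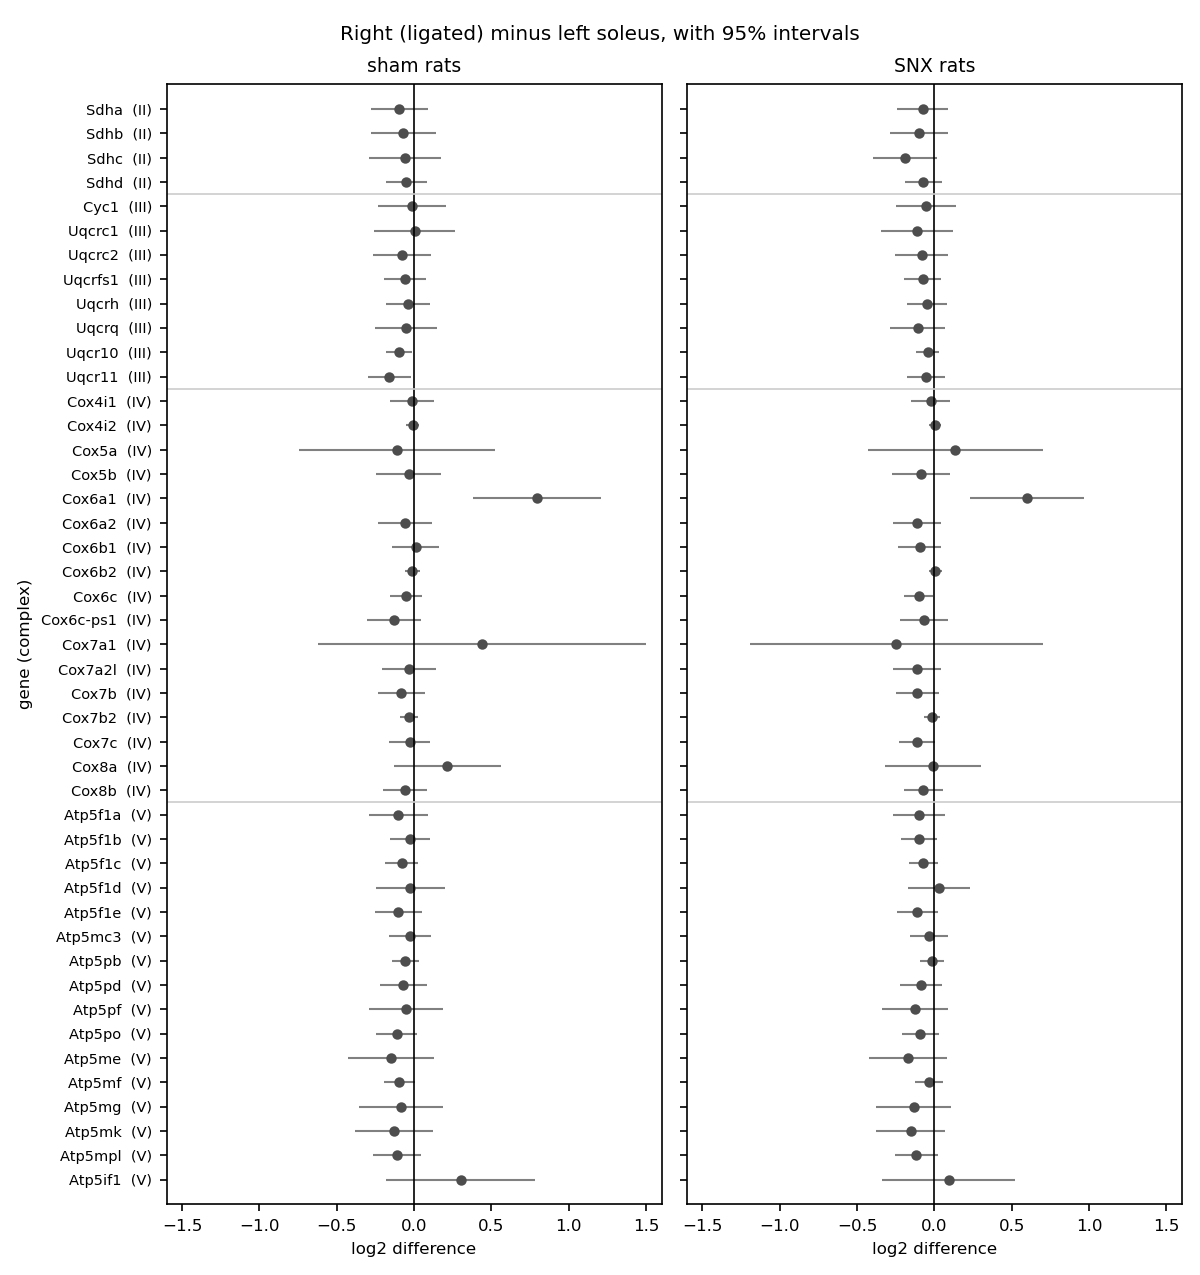
Right (ligated) minus left log2 difference of each of the 45 genes in sham rats (left panel, 4 rats) and SNX rats (right panel, 5 rats), with 95% intervals from limma without the block. Cox6a1 lies at 0.79 and 0.60, Cox7a1 has the widest interval, and 39 of 45 points in each panel lie below 0.

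The small differences mostly pointed one way. The right limb was lower for 39 of 45 genes in sham rats and for 39 of 45 in SNX rats, and 35 genes were lower in both. Without the 3 genes at background it was lower for 36 of 42 in sham and 38 of 42 in SNX rats. The median difference of all 45 was -0.0562 in sham and -0.0821 in SNX rats. Over all 14217 genes it was -0.0187 and -0.00605, and 39.1% and 44.8% of them were above 0. By complex the sham medians were -0.064 (II), -0.0531 (III), -0.0318 (IV) and -0.0826 (V), and the SNX medians -0.0857, -0.0666, -0.0719 and -0.0943. With the right arrays of sham rat 17 and SNX rat 49 left out the medians were -0.00275 in sham and -0.0614 in SNX rats. Leaving out that array alone keeps the left array of rat 17, which was itself low (-0.0717), in the sham mean. Dropping both limbs of rat 17 gave a sham median of -0.031, and dropping both of rat 11 gave -0.0942.

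Single rats differed in this shift. Of the 42 genes above background, rat 11 had 16 lower on the right (median 0.0535), rat 12 had 20 (0.00315) and rat 18 had 23 (-0.0083). The other 6 rats had 34 to 40 lower, with medians of -0.0956 (rat 13), -0.0734 (15), -0.126 (17), -0.15 (20), -0.138 (37) and -0.0993 (49). Most members were therefore lower on the right in these 6 rats, which include sham and SNX rats, and near level in rats 12 and 18. Sham rat 11 ran the other way, with 26 of the 42 higher on the right. Complex I subunits, which are no members, were taken by symbol as described below. Their medians were -0.207 in rat 17 and -0.178 in rat 49, and -0.0116 in rat 11 and 0.0136 in rat 12.

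**Figure D3:**
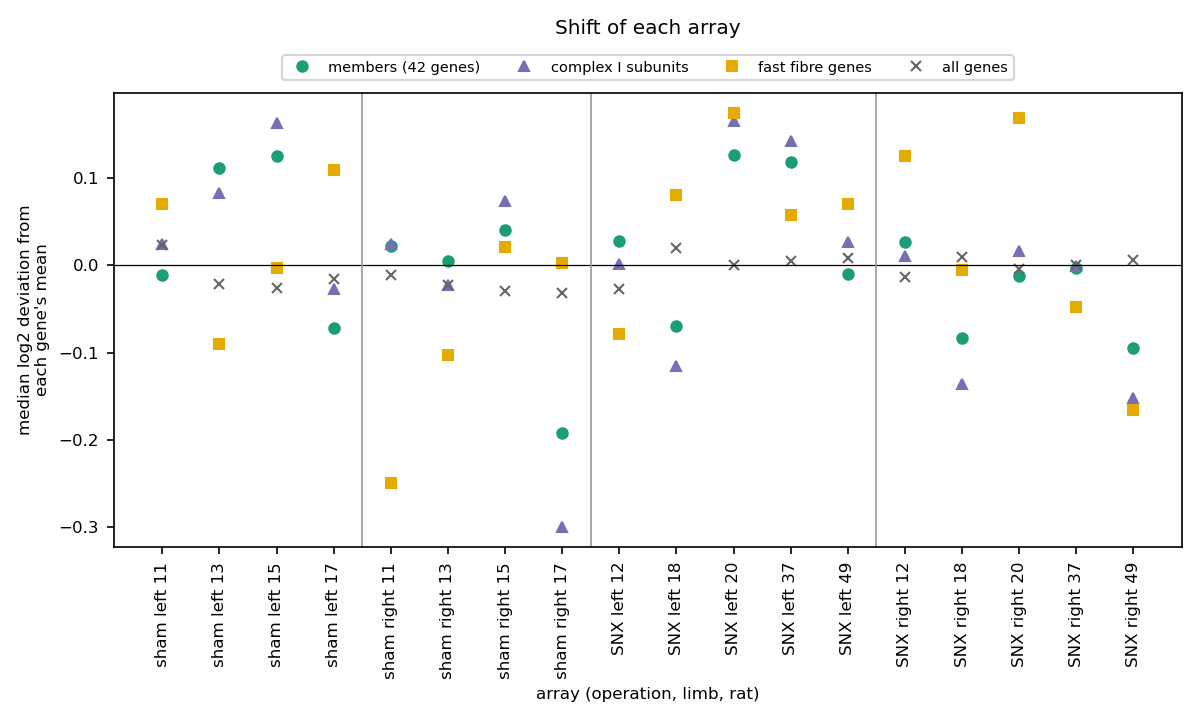
Median log2 deviation from each gene's mean over 18 arrays, for the 42 respiratory genes above background, complex I subunits, fast fibre genes and all genes, by array. The right array of sham rat 17 lies lowest for the members (-0.192) and complex I (-0.299), while its fast fibre genes (0.00252) and all genes (-0.032) lie near 0.

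The right array of sham rat 17 had 39 of the 42 genes below their means, and its shift was -0.277 for complex II, -0.197 for III, -0.149 for IV and -0.196 for V. The left arrays of SNX rat 20 and sham rat 15 were highest, at 0.127 and 0.125. Array shifts of the members thus spanned 0.319 log2 units, which is larger than the median difference between any of the groups. A range over single arrays tends to exceed differences of group means, and it leaves out the pairing of the limbs. The macrophage signal of the array of rat 17 is given above, and its part in the shift was not tested.

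**Figure D4:**
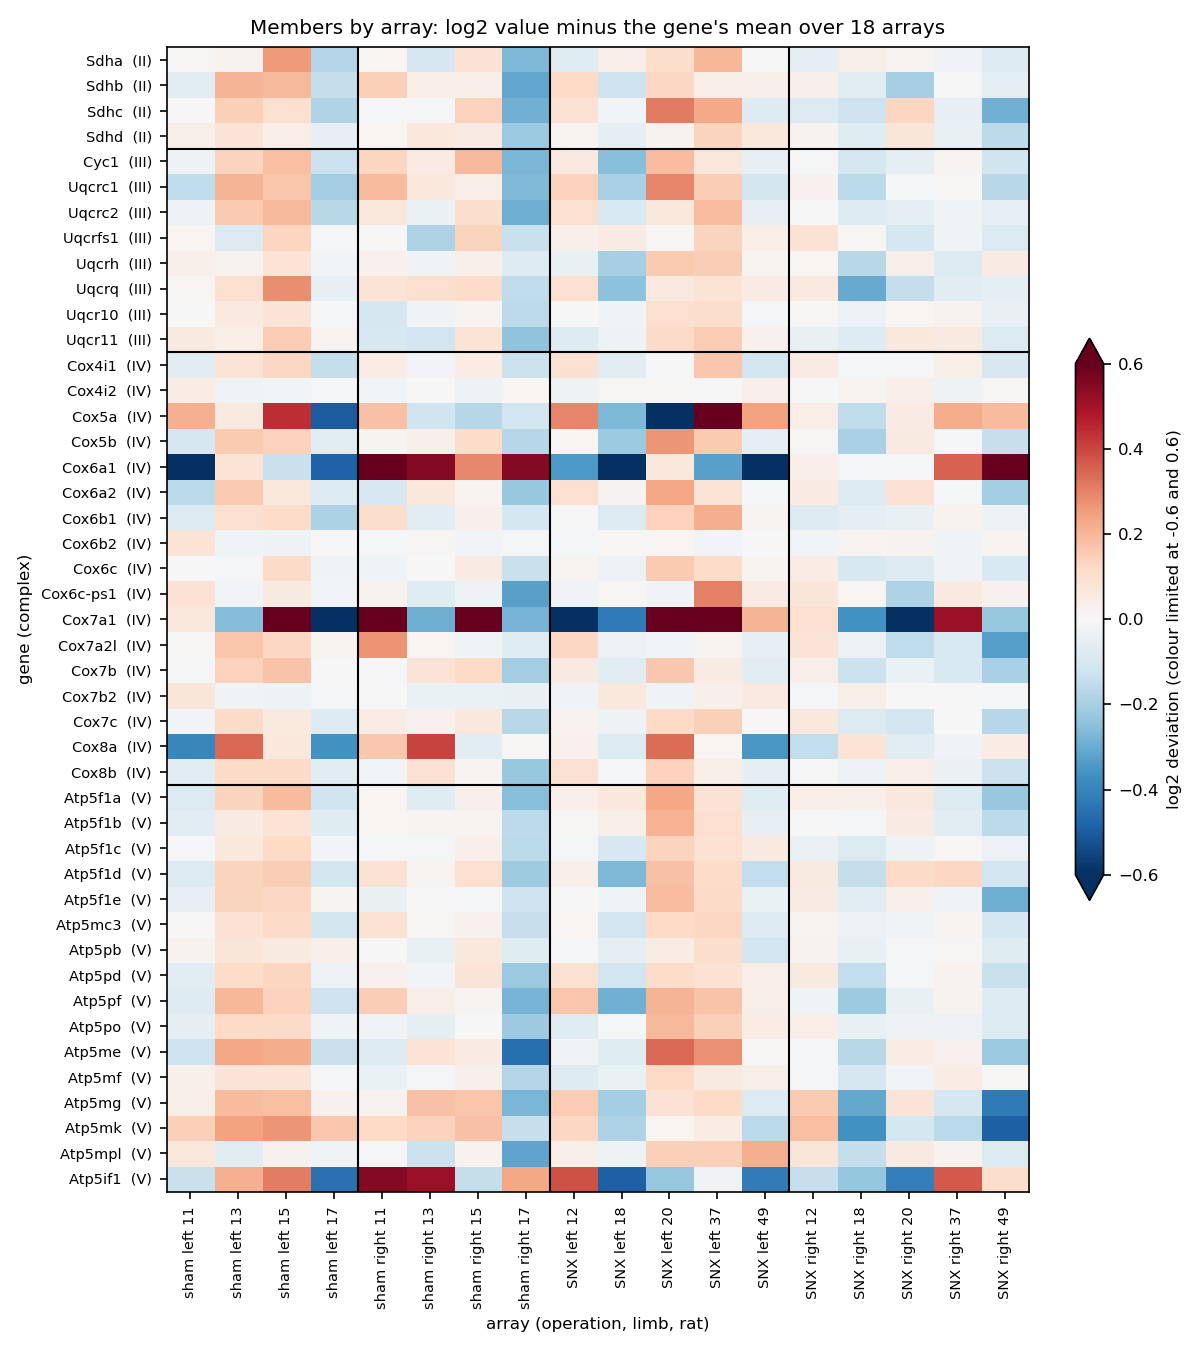
Log2 value minus the gene's mean over 18 arrays for the 45 genes (rows, by complex) on each array (columns, by group), with colour limited at -0.6 and 0.6. Most rows are pale, Cox6a1, Cox7a1, Cox5a and Atp5if1 are not, and the column of the right array of sham rat 17 is low throughout complexes II, III and V apart from Atp5if1.

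In complex II, Sdha, the flavoprotein that oxidises succinate, measured 12.81, 12.83, 13.07 and 12.63 in sham left and 12.82, 12.71, 12.89 and 12.54 in sham right muscle. It differed by -0.0954 ± 0.0858 in sham and -0.075 ± 0.0768 in SNX rats. Sdhb, the iron-sulfur protein, differed by -0.0705 and -0.0964, and the membrane anchor Sdhd by -0.0511 and -0.0711. A second probe set of Sdhd, with a lower mean (12.07), differed more, by -0.153 in sham and -0.15 in SNX rats. The other anchor, Sdhc, measured 13.23, 13.13, 13.45, 13.37 and 13.06 in SNX left and 13.06, 13.02, 13.27, 13.09 and 12.85 in SNX right muscle, so each of the 5 rats had its lower value in the ligated limb, although the ranges overlapped. Its difference of -0.189 ± 0.0975 (interval -0.397 to 0.0186) did not pass the threshold (adjusted p = 0.683, 0.296 with the block), and in sham rats it was -0.0574.

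In complex III the electron carriers differed little. Cyc1, cytochrome c1, differed by -0.013 in sham and -0.0552 in SNX rats, and Uqcrfs1, the Rieske iron-sulfur protein, by -0.0567 and -0.0768. The core proteins Uqcrc1 and Uqcrc2 differed by 0.00507 and -0.0778 in sham and by -0.114 and -0.0821 in SNX rats. A second probe set of Uqcrc2, with a lower mean (10.69), differed by -0.255 in sham and -0.0956 in SNX rats. The small subunit Uqcr11 measured 13.74, 13.72, 13.84 and 13.70 in sham left and 13.58, 13.57, 13.76 and 13.44 in sham right muscle, so only rat 15 kept the groups from separating. Its difference was -0.159 ± 0.0648 (adjusted p = 0.338, 0.114 with the block). Uqcr10, another small subunit, differed by -0.0974 ± 0.0391 (adjusted p = 0.327, 0.111 with the block). In SNX rats they differed by -0.0564 and -0.042.

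Among the complex IV genes outside the isoform pairs, Cox4i1, the ubiquitous form of subunit 4, differed by -0.0145 in sham and -0.0228 in SNX rats. Cox5b differed by -0.0342 and -0.0874. Cox5a had values from 5.88 to 7.68 and differences of -0.11 ± 0.296 and 0.134 ± 0.265. Its lowest value was the left array of SNX rat 20. The single probe set of Cox5a had a mean of 7.077, and how well it measures the gene was not tested. Cox7a2l, a factor of respiratory supercomplexes, differed by -0.0318 and -0.113. Cox6c measured -0.102 ± 0.0437 in SNX rats (adjusted p = 0.583, 0.251 with the block), and the pseudogene Cox6c-ps1 had the lowest sham difference of this complex, -0.13.

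In complex V the catalytic F1 subunits alpha and beta (Atp5f1a and Atp5f1b) differed by -0.101 and -0.0249 in sham rats and -0.101 and -0.0983 in SNX rats. The central stalk subunit gamma (Atp5f1c) differed by -0.0799 and -0.0721, the rotor ring subunit Atp5mc3 by -0.0244 and -0.0375, and the stalk subunit OSCP (Atp5po) by -0.113 and -0.0902. The membrane subunit Atp5me was lowest in both, at -0.15 ± 0.131 and -0.171 ± 0.117. The gene of the inhibitor of ATP hydrolysis, Atp5if1, was highest in both, at 0.303 ± 0.226 and 0.0943 ± 0.202. It measured 10.76, 11.10, 11.19 and 10.44 in sham left and 11.44, 11.40, 10.74 and 11.12 in sham right muscle, and rat 15 went against the other 3. None of these differences passed the threshold.

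The limb difference did not depend detectably on the kidney operation. Of the 45 genes, 0 passed the threshold for the SNX less sham contrast in either fit (0% of all probe sets without and 0% with the block), and 0 had an unadjusted p under 0.05 (1.41%, and 0 with the block, 3.07%). The median contrast was -0.02 (0.011 over all genes), and 13 genes were above 0 (56.8% of all genes). Dropping the 2 arrays lowest in slow fibre genes gave 0.000155 and dropping sham rat 11 gave 0.0102. The ends were Cox5a (0.244 ± 0.397) and Cox7a1 in complex IV, Uqcr11 (0.102) and Uqcrc1 (-0.119) in III, Sdha (0.0203) and Sdhc (-0.132) in II, and Atp5mf (0.0613), a membrane subunit, and Atp5if1 (-0.209) in V.

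Between SNX and sham rats the signals of these genes gave no call, and their median differences were near 0. In the left limb 0 of 45 genes passed the threshold (0.00644% of all probe sets, 0.00644% with the block), and in the right limb 0 of 45 passed (0% in both fits). At an unadjusted p under 0.05 there were 0 in the left (6.25% of all probe sets) and 1 in the right limb (9.25%), Atp5mk. With the block Atp5mk was the 1 such gene in the left (6.13%) and in the right limb (9.67%). The median difference was 0.004 in the left limb (0.0113 over all genes) and -0.00993 in the right limb (0.022). In the left limb 26 genes were above 0 and 19 below, and in the right limb 19 were above and 26 below, where 59% and 59.8% of all genes were above. The medians took either sign as rats were left out, from -0.0241 to 0.0359 on the left and from -0.0619 to 0.0078 on the right.

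Atp5mk, a small membrane subunit of ATP synthase also known as DAPIT, was the lowest of complex V in the left limb. Sham rats measured 14.26, 14.36, 14.39 and 14.28 on the left, and SNX rats 12, 18, 20, 37 and 49 measured 14.25, 13.94, 14.13, 14.17 and 13.96. All SNX values lay below all sham values, with rat 12 only just so. This was the 1 member whose groups did not overlap in the left limb (2.52% of all probe sets in either direction). The right values were 14.24, 14.26, 14.30 and 13.98 in sham and 14.31, 13.76, 14.02, 13.96 and 13.63 in SNX rats. Those groups overlapped, since SNX rat 12 was the highest of all, and no member was free of overlap in the right limb (8.25%).

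The SNX minus sham difference of Atp5mk was -0.235 ± 0.111 (0.85-fold, interval -0.472 to 0.00263, adjusted p = 0.805) on the left and -0.26 ± 0.111 (0.835-fold, interval -0.497 to -0.0226, adjusted p = 0.498) on the right. It did not pass the threshold in either limb or fit. Both limbs come from the same rats and are not independent. Atp5mg, another membrane subunit, had 14.20 in both limbs of SNX rat 12 and 13.62 to 14.16 in the other SNX arrays. Its differences were -0.0922 ± 0.122 and -0.142 ± 0.122.

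**Figure D5:**
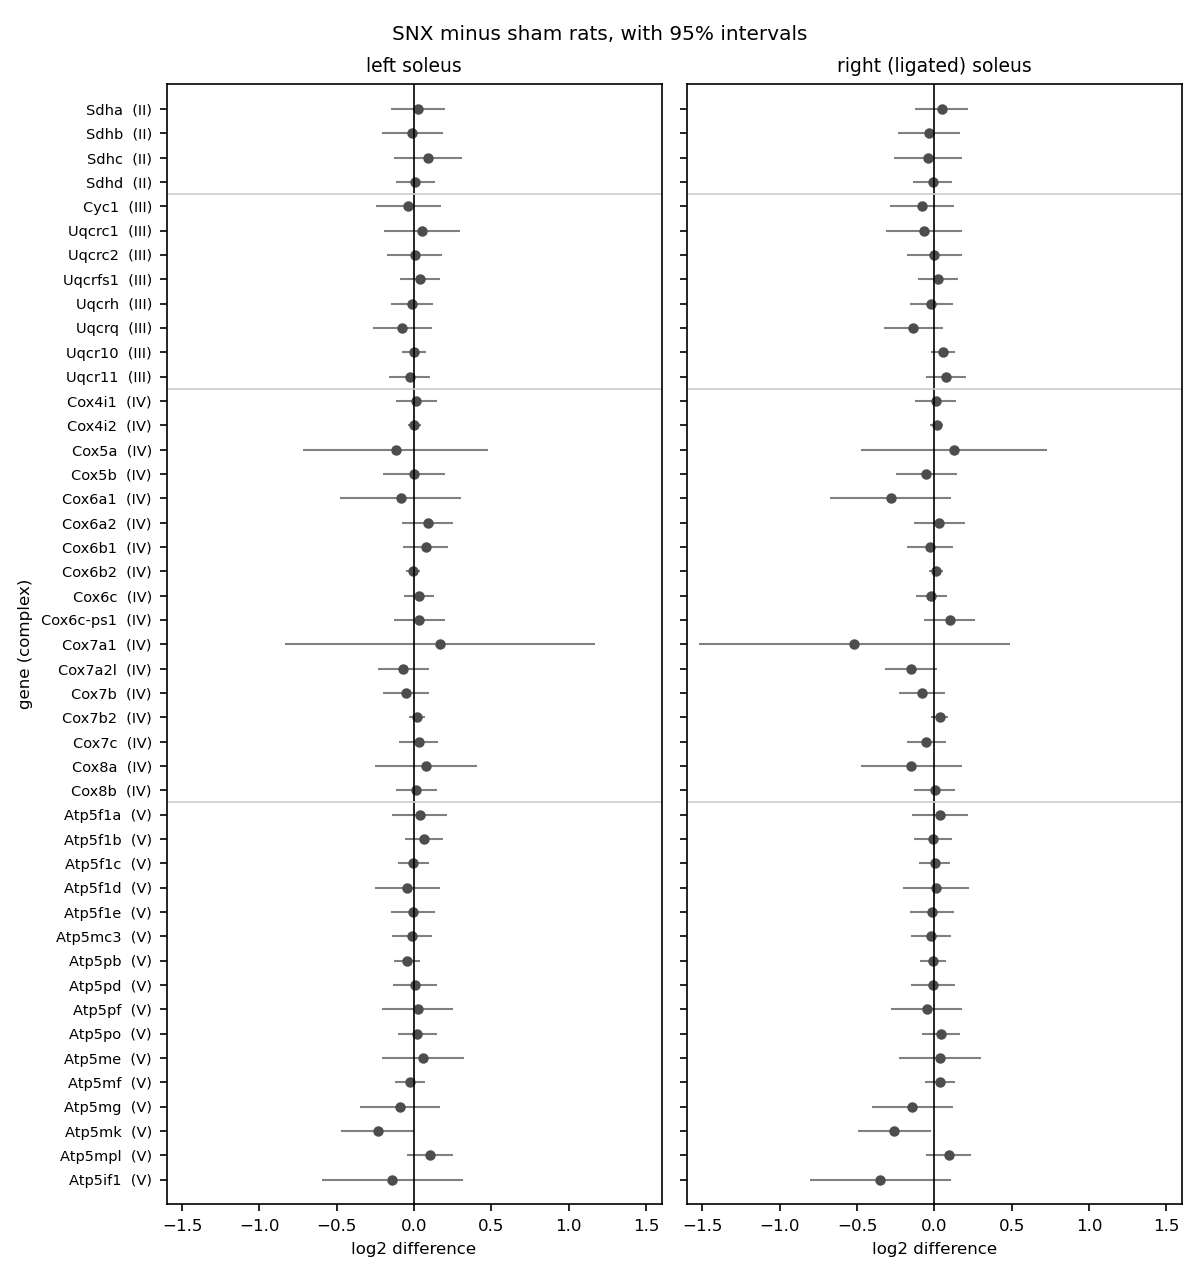
SNX minus sham log2 difference of each of the 45 genes in the left (left panel) and right, ligated soleus (right panel), 5 SNX against 4 sham rats, with 95% intervals from limma without the block. Atp5mk lies at -0.235 and -0.26, and most other points lie within 0.1 of 0.

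The remaining extremes between SNX and sham rats had intervals that included 0. In complex II they were Sdhc (0.0893) and Sdhb (-0.01) on the left and Sdha (0.0469) and Sdhc (-0.0424) on the right. In complex III the small subunit Uqcrq was lowest in both limbs (-0.0761 and -0.136), with Uqcrc1 (0.0522) highest on the left and Uqcr11 (0.0738) on the right. In complex IV Cox7a1 was highest on the left (0.169) and lowest on the right (-0.518 ± 0.472), and Cox5a was lowest on the left (-0.118) and highest on the right (0.126). In complex V the membrane subunit Atp5mpl was highest in both (0.102 and 0.0917), and Atp5if1 was lowest on the right (-0.349 ± 0.214). Cox6a1 measured -0.087 ± 0.184 and -0.283 ± 0.184, and Cox7a2l -0.151 ± 0.0781 on the right (adjusted p = 0.498).

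The intervals bound differences of array signal. Of the 45 genes, 33 had means above 13, and how far the upper end of the scale compresses differences was not tested. The intervals therefore do not bound differences of transcript for such genes. For SNX against sham rats, the 95% interval of 42 of 45 genes on the left and 41 on the right lay within 0.5 log2 units of 0 (1.41-fold), against 66.6% and 65.5% of all genes. Between the limbs it did so for 40 genes in sham rats (58.4%) and 41 in SNX rats (65.9%). The contrast of these lay inside for 40 genes (53.7%). Cox5a, Cox7a1 and Atp5if1 fell outside these bounds in every comparison, so larger differences of these 3 genes could not be told from 0. The 3 background genes are among those inside, because background varies little. These intervals are for 1 gene at a time and are not adjusted.

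Other gene lists of the same pathway also had medians below 0 between the limbs, with wider ranges in some. Complex I subunits were taken as every gene whose single symbol starts with Ndufa, Ndufb, Ndufc, Ndufs or Ndufv, without assembly factors. That choice would also take in Ndufa4 and Ndufa4l2, which are on the list of exchange genes below. Of the 36 genes so taken, 0 passed the threshold in any comparison in either fit. The right limb was lower for 34 in sham rats (median -0.112) and for 35 in SNX rats (median -0.107). Of the assembly factors of complexes II to V, 32 of 35 were measured, with medians of -0.082 and -0.101, and of the tricarboxylic acid cycle and pyruvate dehydrogenase genes 13 of 16, with -0.105 and -0.109. For the carriers and kinases that exchange nucleotides, phosphate and phosphocreatine, all 8 were measured and the medians were -0.0427 and -0.015. Single genes of this list ran from -0.157 to 0.884 in sham and from -0.134 to 0.766 in SNX rats. The assembly factors ran from -0.77 to 0.208 and from -0.561 to 0.197. In sham rats 5 assembly factors and 3 complex I subunits lay lower on the right without overlap (8.64% of all probe sets in either direction). In SNX rats 1 and 0 did (1.95%). None of these genes passed the threshold in any comparison in either fit. Between SNX and sham rats the complex I median was -0.00728 on the left and 0.0111 on the right.

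Regulators of mitochondrial biogenesis (13 of 13 measured) and genes of oxygen-dependent subunit exchange (7 of 8) also gave 0 calls. Between the limbs the regulators ran from -0.155 to 0.995 in sham and from -0.233 to 0.827 in SNX rats. The exchange genes ran from -0.074 to 0.936 and from -0.134 to 0.717. In sham rats 1 regulator and 2 exchange genes lay higher on the right without overlap (8.64% of all probe sets in either direction). In SNX rats 1 regulator lay lower without overlap (1.95%). Ppargc1a, the coactivator that drives mitochondrial biogenesis, differed between limbs by 0.337 ± 0.434 in sham and 0.781 ± 0.388 in SNX rats (adjusted p = 0.663, 0.309 with the block). Cs, citrate synthase, differed by -0.122 ± 0.0916 and -0.122 ± 0.0819. Higd1a, a hypoxia-inducible partner of complex IV, differed by 0.241 ± 0.133 in sham (adjusted p = 0.473) and 0.012 ± 0.119 in SNX rats, and Lonp1, the protease that degrades a replaced complex IV subunit at low oxygen, by -0.0173 and -0.134. Slc25a4, the muscle ATP-ADP carrier, differed by -0.0529 and -0.0503, and Ckmt2, mitochondrial creatine kinase, by 0.022 and -0.00046.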

How the data were processed

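The deposited table holds log2 values normalized by the authors for 18 Affymetrix arrays, 1 per limb of 9 rats, made from 2 micrograms of total RNA each, per the labels' protocols. Per the submitters' processing notes the tools were RMA, GCRMA and Partek. No source used here says which of them gave the values. Arrays have no read depth, and their number limits the precision. Groups and rat numbers came from the sample titles. Tests ran on 31042 probe sets, without 57 controls. Symbols came from the platform annotation, updated through the Entrez ID (20758 of 20826 probe sets that list 1 gene matched). Probe sets with several genes (436) or without a gene (9780) stayed in the tests and are unnamed.

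One mean per group was fitted over all 18 arrays with limma 3.58.1 (lmFit, eBayes; R 4.3.3, data.table version 1.17.8; 14 residual and 1.02 prior degrees of freedom). P-values were two-sided, adjusted by Benjamini-Hochberg over all 31042 with 0.05 as the threshold, and errors are standard errors. The limbs of a rat come from the same animal, which pairs them. Their deviations from the group means correlated above 0.1 in 7 of 9 rats, and the paired fit took the rat as a random block (duplicateCorrelation, 0.297). Where no source says that rats were handled separately, p-values measure only the spread between these samples. Sequences were read with Python 3.11.15. The fit without a block was tested on simulated data in which the limbs of a rat were independent. The paired fit was not tested in this way.

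The members, gene lists and tests were chosen with earlier results of these data known. The text names every member past the threshold in either fit, the highest and lowest member of each complex in each comparison, and fixed genes: the subunits of complex II, Cyc1, Uqcrc1, Uqcrc2, Uqcrfs1, Cox4i1, Cox4i2, Cox5a, Cox5b, Cox6a1, Cox6a2, Cox7a1, Cox7a2l, Cox8a, Cox8b, the F1 alpha, beta and gamma, subunit c, OSCP and inhibitor genes, and Ppargc1a, Cs, Lonp1, Higd1a, Slc25a4 and Ckmt2. Cox6b2, Cox7b2, Atp5mg and members with an unadjusted p under 0.05 were named after their values were seen. Alternatives were the paired fits, leaving out rats or arrays, fitting only the groups compared, quantile normalization, median centring, a filter on dim probe sets, a trended robust fit and the mean of a gene's probe sets. Leaving out the 2 arrays lowest in slow fibre genes, alone or with others, and combining the block with left-out arrays were chosen after seeing the data.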

Additional observations from a re-analysis of the deposited data

Results flagged for a closer look

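In each group of 4 or 5 arrays the highest or lowest value of a member was set against the nearest other value by Dixon's test. Of 180 groups examined, 10 held a value far from the others (5.56%), where chance gives about 1 in 20. The right array of sham rat 17 held 4 of the 10, all low: Sdhd at 13.30 (nearest 13.53), Uqcrq at 13.55 (13.78), Cox7c at 13.62 (13.81) and Atp5f1b, the catalytic F1 beta subunit, at 14.10 (14.27). This is one of the arrays that stood apart from the rest. Uqcrq was also low on the left array of SNX rat 18, at 13.45 (13.75). Cox5a was high on the right array of sham rat 11, at 7.25 (6.96). The pseudogene Cox6c-ps1 was high on the left array of SNX rat 37, at 5.43 (5.18), and low on the right array of SNX rat 20, at 4.95 (5.14). Cox7b2, at background, was highest in sham rat 11 in both limbs, at 2.51 (2.43) and 2.44 (2.40). No cause of these values was tested.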

How the results depend on the processing

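The count of members past the threshold was 0 under every alternative run for SNX against sham rats in either limb, between the limbs of SNX rats and for the contrast of the limb differences. For right against left in sham rats it was 0 on all arrays without a block and with the rat as a fixed term. It was 1 (Cox6a1) in 5 alternatives: with the rat as a random replicate block, without SNX rat 49 and no block, and with the block without SNX rat 20, without SNX rat 49 or without the 2 arrays that stood apart. Over the rats left out it ran from 0 to 1. The random block changed no other call of a member. Cox6a1 in sham rats had adjusted p-values from 0.0132 to 0.524 over 32 alternatives, with differences from 0.642 to 0.916.

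Of 61 differences of single genes followed through the alternatives, 44 never changed sign and 17 did, all of them uncalled. Leaving out rats gave these ranges. For SNX minus sham on the left they were Cox5a -0.302 to 0.164, Cox6a1 -0.201 to 0.0378, Cox7a1 -0.143 to 0.47, Sdhb -0.0737 to 0.0418 and Uqcrc1 -0.0175 to 0.119, and on the right Sdha -0.0195 to 0.0979 and Sdhc -0.124 to 0.018. For right minus left they were Uqcrc1 -0.108 to 0.0525 in sham rats, and Atp5if1 -0.013 to 0.248, Cox7a1 -0.624 to 0.192 and Cox8a -0.111 to 0.0866 in SNX rats. For the contrast they were Cox5a -0.0331 to 0.409 and Sdha -0.00554 to 0.0565. Without the right arrays of sham rat 17 and SNX rat 49, Sdha was -0.00524 (SNX minus sham, right) and -0.0318 (contrast), and Atp5mg, Cox8b and Sdhd were 0.0131, 0.00571 and 0.0149 (right minus left, sham). Without the 2 arrays lowest in slow fibre genes, SNX minus sham on the left was -0.143 for Cox7a1 and -0.0175 for Uqcrc1, Uqcrc1 was -0.0646 (right minus left, sham) and Atp5if1 0.0223 (contrast). Without all 4 arrays, Cox7a1 was -0.143 (SNX minus sham, left) and 0.0388 (right minus left, SNX), Uqcrc1 -0.0175 (left) and Sdha -0.0124 (right). Under quantile normalization Uqcrc1 was -0.0234 (sham) and Cox8a 0.0197 (SNX) for right minus left, and with median centring Uqcrc1 was -0.01 (sham). The cause was not tested.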
